A study of Mus musculus with 9 samples.

Results

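The nuclear genes of oxidative phosphorylation were followed, complex by complex, in the hippocampus of mice after bone surgery with or without Maresin 1. Members were taken by symbol, as the genes beginning with Nduf, Uqcr, Cox or Atp5 together with the genes of the succinate dehydrogenase subunits Sdha to Sdhd, and 97 of the 18820 genes measured met this rule. They comprised 34 subunits of complex I, 4 of complex II, 7 of complex III, 18 of complex IV, 17 of complex V and 17 assembly factors. Ndufa4 and its paralogue Ndufa4l2 were counted with complex IV, where the Ndufa4 protein sits.

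The data were 9 Affymetrix array profiles from C57BL/6 mice of 12 to 14 weeks, in 3 groups of 3 arrays that the titles call biological replicates. Control mice carry no further description in the labels. Surgery mice had a fracture of the tibia, and their hippocampi were taken at 72 h. The Maresin 1 group received Maresin 1, a lipid mediator that macrophages make from an omega-3 fatty acid, before the same operation, at a dose the labels do not give. The labels name no sham operation and no group given Maresin 1 alone. The title of the series asks about inflammation of the brain in a model of cognitive decline after surgery. Levels are given as log2 of the quantile-normalized signal plus 16, a difference is a difference of group means on that scale, and n is 3 arrays in every group.

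Complex I takes electrons from NADH and complex II from succinate. Both pass them through ubiquinone to complex III, which hands them by way of cytochrome c to complex IV, where oxygen is reduced. Complexes I, III and IV pump protons across the inner mitochondrial membrane, and complex V, the ATP synthase, uses the returning protons to make ATP. The catalytic cores of complexes I, III and IV are partly encoded in mitochondrial DNA, while all members here are nuclear. The hippocampus depends on this pathway for the energy of synaptic transmission.

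Promoters of these genes are known for sites of NRF1, a nuclear factor that activates respiratory genes, and of ETS factors such as GABP. RefSeq promoters of the GRCm38.p6 build, the 250 bases before the start, were found for 80 of the 97 members. The NRF1 core GCGCANGCG occurred on either strand in 15 of them, 18.8%, against 5.86% of the promoters of 27025 genes. The ETS core CCGGAAG occurred in 16 of them, 20%, against 7.83% of all. Both cores were found in 4 members and at least 1 of them in 27. The NRF1 core occurred in Ndufs6 and Ndufa5, which were lower with Maresin 1 than in control, and in Atp5c1, which was higher. The 4 promoters below were picked by hand from subunits described in the following paragraphs, and do not stand for higher and lower subunits. They are a pair with matches, drawn in capitals on the strand of the gene, and a pair without.
Ndufb4, chr16:37654369-37654618, minus strand: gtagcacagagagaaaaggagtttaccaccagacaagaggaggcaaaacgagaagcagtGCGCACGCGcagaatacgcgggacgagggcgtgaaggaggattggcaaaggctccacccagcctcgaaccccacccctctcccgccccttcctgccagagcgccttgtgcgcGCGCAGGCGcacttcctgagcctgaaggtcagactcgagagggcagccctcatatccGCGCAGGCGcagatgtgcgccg
Cox6a1, chr5:115348959-115349208, minus strand: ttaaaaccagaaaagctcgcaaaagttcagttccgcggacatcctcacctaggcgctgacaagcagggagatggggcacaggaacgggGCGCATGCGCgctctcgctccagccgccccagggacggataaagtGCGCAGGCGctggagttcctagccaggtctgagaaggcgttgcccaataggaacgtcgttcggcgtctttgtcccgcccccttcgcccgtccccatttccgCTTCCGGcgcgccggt
Ndufc1, chr3:51408956-51409205, minus strand: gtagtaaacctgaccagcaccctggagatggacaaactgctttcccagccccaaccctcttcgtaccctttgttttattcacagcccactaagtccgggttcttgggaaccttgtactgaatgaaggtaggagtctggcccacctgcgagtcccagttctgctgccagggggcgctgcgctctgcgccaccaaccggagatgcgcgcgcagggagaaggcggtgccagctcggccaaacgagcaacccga
Atp5g1, chr11:96075632-96075881, minus strand: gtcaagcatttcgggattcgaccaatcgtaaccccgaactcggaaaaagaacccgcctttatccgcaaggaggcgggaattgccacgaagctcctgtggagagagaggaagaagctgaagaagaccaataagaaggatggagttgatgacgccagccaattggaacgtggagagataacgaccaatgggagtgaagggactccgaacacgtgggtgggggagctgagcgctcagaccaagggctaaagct
The promoter of Ndufb4 held the NRF1 core 3 times. In that of Cox6a1 the core was also matched 3 times, since 1 of its capital stretches reads as a match on both strands, and the last stretch in capitals is an ETS core on the opposite strand. The median difference between surgery and control was -0.043 over the 15 members with the NRF1 core and -0.031 over the members whose promoter lacked it. The medians between Maresin 1 and control were -0.037 and -0.014. For the ETS core they were -0.023 with and -0.042 without in surgery against control, and 0.019 and -0.024 in Maresin 1 against control. These medians are given as a description, with no test, and a match of letters is no measured binding site.

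As for the tissue, all 7 neuronal markers measured, among them Snap25, lay above 5.86, the 95th percentile of 990 olfactory receptor genes, which served as a guide to background. So did 94 of the 97 members. The 3 others, Cox7b2, Cox8c and Ndufa4l2, are paralogues of the main complex IV subunits. Median deposited signals ran from 54.1 to 100 between arrays. Markers of the choroid plexus, the secretory epithelium beside the hippocampus, set control replicates 2 and 3 apart. The mean deviation of the 9 markers measured from their 9-array means was 2.53 and 2.84 there and between -0.91 and -0.58 in the other arrays. By their mean over all 9 arrays 8 of the 9 lay above background, but control replicates 2 and 3 raise this mean. Slc4a5, counted among them, stood at 11.33 and 11.70 in these 2 arrays and between 4.92 and 5.29 in the others. In RNA from whole tissue, fewer cells of a type and less RNA per cell cannot be told apart.

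No member passed an adjusted p of 0.05 in limma in any of the 3 comparisons, against 0% of all genes in surgery against control, 0% in Maresin 1 against surgery and 0.085%, which is 16 genes, in Maresin 1 against control. At an unadjusted p under 0.05, 10 members differed between surgery and control, where 6.21% of all genes did. Of these, 4 were higher after surgery, against 3.9% of all genes, and 6 lower, against 2.31%. Between Maresin 1 and surgery 8 members differed, where 5.66% of all genes did, with 7 higher against 1.96% and 1 lower against 3.7%. Between Maresin 1 and control 23 members differed, where 11.5% of all genes did, with 9 higher against 5.87% and 14 lower against 5.61%. Any 2 of the 3 comparisons share the arrays of a group. The smallest adjusted p among members was 0.630, 0.859 and 0.0792 in the 3 comparisons.

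The differences were small. In surgery against control 70 of the 97 members lay within 0.1 of no difference, 72.2%, against 67.7% of all genes. In Maresin 1 against surgery 82 did, 84.5% against 68.0% of all genes, and in Maresin 1 against control 58 did, 59.8% against 62.3%. The median member differed by -0.030 between surgery and control, by 0.0038 between Maresin 1 and surgery and by -0.016 between Maresin 1 and control. All genes had medians of 0.019, -0.019 and -0.0032.

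**Figure D1:**
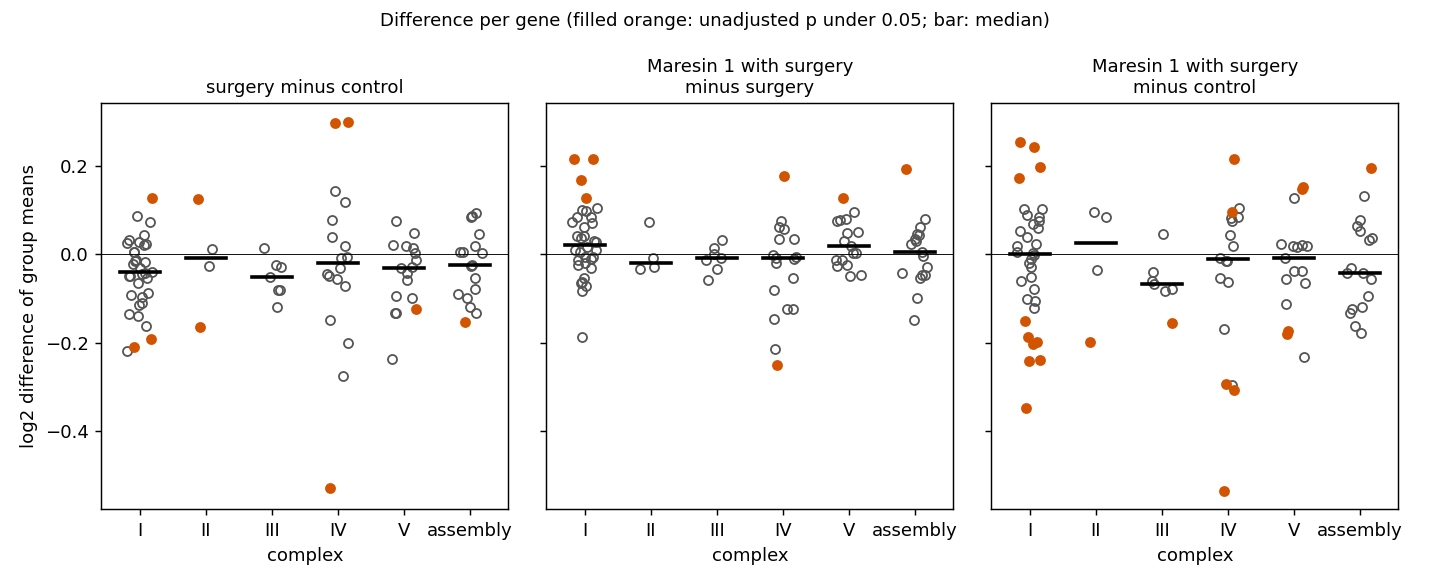
Log2 difference of group means of each of the 97 genes (y axis) by complex or assembly class (x axis) in the 3 comparisons, with filled orange points at an unadjusted limma p under 0.05, open points otherwise and a bar at the median. Points reach from -0.53 for Cox8b to 0.30 for Cox6a1 and Cox4i2 in surgery against control, while most lie within 0.1 of 0.

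The direction of the whole set differed with the way arrays were brought to one scale. With quantile normalization 35 of 97 members were higher after surgery and 62 lower, whereas with each array scaled to one median 85 of 97 were higher, at a median of 0.118 against 0.101 for all genes. For Maresin 1 against surgery 51 of 97 were higher with quantile normalization, against 7846 of all genes. With one median 7 of 97 and 4335 of all genes were higher, at medians of -0.132 and -0.089. For Maresin 1 against control 43 of 97 were higher with quantile normalization and 40 with one median, against 9216 and 9612 of all genes. Without any normalization 34, 31 and 33 of 97 were higher in the 3 comparisons in this order. Of all genes 8112, 9269 and 7733 were higher. The member medians were then -0.022, -0.034 and -0.060, against -0.018, -0.0019 and -0.026 for all genes. All genes thus moved with the scaling as well. Values and counts with one median per array below are given without subtracting this shift of all genes.

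Single arrays stood apart within each scaling. With quantile normalization the median member in surgery replicate 3 had a deviation of -0.076 from its 9-array mean, against 0.0079 for all genes. In that array 37 of the 97 members had their lowest value, 38.1%, against 7.57% of all genes, and 1 member had its highest. These 37 included 14 subunits of complex I, 2 of II, 4 of III, 7 of IV and 8 of V. Control replicate 3 held the highest value of 29 members, 29.9% against 15.7% of all genes. Without surgery replicate 3 the median member differed by 0.0063 between surgery and control. Cytosolic ribosomal protein genes also had their lowest median deviation in surgery replicate 3, at -0.094, as a list of 79, while the 74 mitochondrial ribosomal protein genes had -0.047 there and -0.067 in control replicate 2. With one median per array the lowest array was another. Control replicate 2 then held the lowest value of 62 members, against 40.4% of all genes, and surgery replicate 3 that of 4 members.

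**Figure D2:**
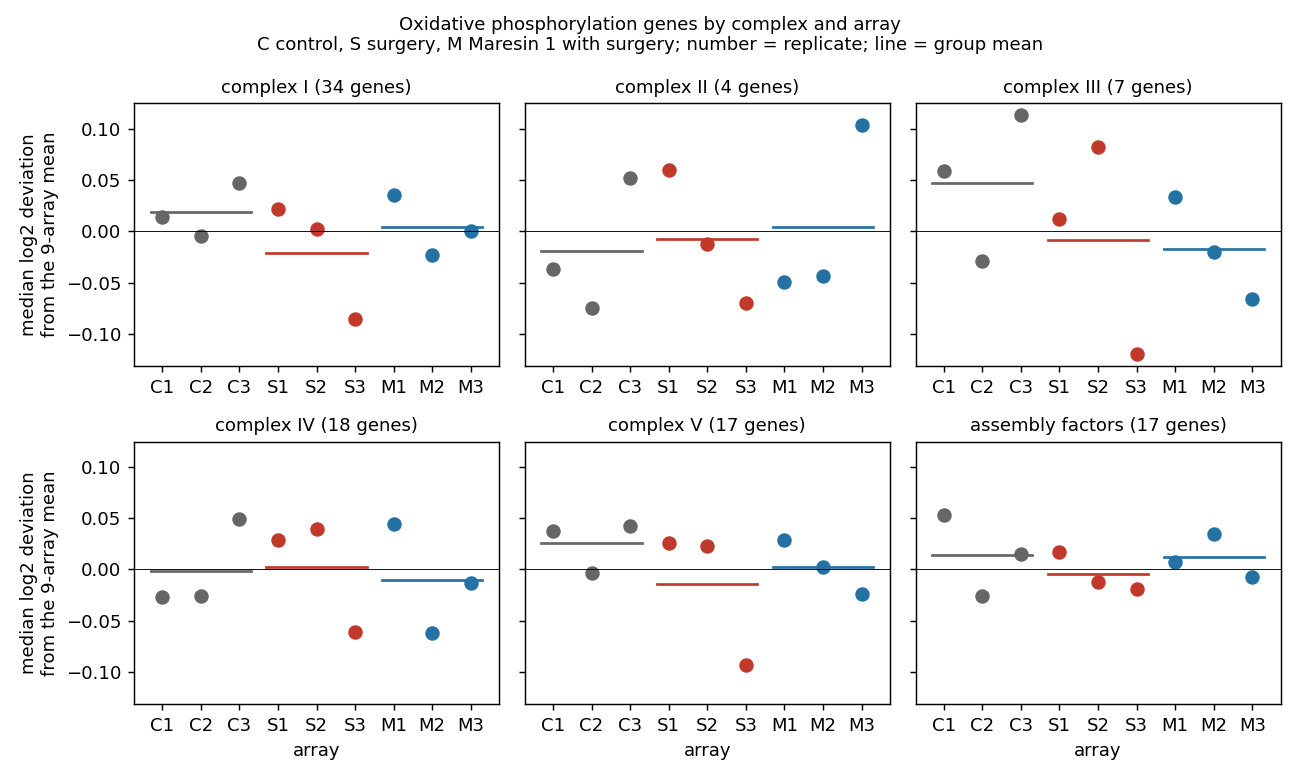
Median log2 deviation of the subunits of each complex, and of the assembly factors, from their 9-array means (y axis, quantile-normalized) in each array (x axis), with a line at each group mean. Surgery replicate 3 is the lowest array for complexes I, III and V, at -0.086, -0.12 and -0.093, which holds for quantile normalization and not for arrays scaled to one median.

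Complex I, the NADH dehydrogenase, had 34 subunits measured, 6 of the catalytic core and 28 supernumerary ones, which surround the core. The median subunit differed by -0.041 between surgery and control, with 11 of 34 higher. With arrays scaled to one median it differed by 0.121, with 29 of 34 higher. Less the all-gene median these were -0.061 and 0.020. Between Maresin 1 and surgery the median subunit differed by 0.022, with 21 of 34 higher, and by -0.130 with one median. Less the all-gene median these were 0.041 and -0.041. Between Maresin 1 and control the median subunit differed by 0.0014, with 17 higher and 17 lower. In that comparison 11 subunits had an unadjusted p under 0.05, 4 of them higher and 7 lower, against 5.87% and 5.61% of all genes. All 11 were supernumerary, as were 28 of the 34 subunits measured. With one median per array 3 of all 97 members had such a p there, against 3.48% of all genes.

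Differences among the core subunits were small. Ndufs1, which holds iron-sulphur clusters of the electron path, had levels of 9.60, 9.38 and 9.58 in control, 9.61, 9.60 and 9.56 in surgery and 9.56, 9.67 and 9.63 in Maresin 1. Control replicate 2 was the low array and the groups overlapped. Ndufv1, the flavin-bearing subunit that accepts electrons from NADH, had group means of 10.53 ± 0.06 (SD, n = 3), 10.57 ± 0.08 and 10.55 ± 0.01. Differences of the 6 core subunits ran from -0.045 to 0.072 in surgery against control and from -0.0010 to 0.10 in Maresin 1 against control.

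Ndufb9, a subunit of the membrane arm, had the smallest p of all members. Its levels were 10.92, 10.87 and 11.02 in control, 11.09, 11.09 and 11.01 in surgery, and 11.19, 11.21 and 11.16 in Maresin 1. With quantile normalization every Maresin 1 array lay above every other array, and surgery overlapped control in 1 array. In the deposited signals control replicate 1 was the highest array. The difference from control was 0.25 (SE 0.05, adjusted p = 0.0792, limma), a 1.19-fold higher level with Maresin 1, and 0.13 from surgery. The deposited signals were 1568, 2568 and 2323 in surgery and 2290, 2185 and 2238 in Maresin 1, so these groups overlapped before normalization. No value with one median per array is given for the difference of Ndufb9 from surgery, where the complex I median was -0.130. Over the 20 alternatives run, the difference from control lay between 0.21 and 0.30, and its adjusted p between 0.0460 and 1.00.

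Ndufs4, a subunit needed for the assembly and stability of the NADH-oxidizing part and mutated in Leigh syndrome, followed closely. Its levels were 10.64, 10.58 and 10.73 in control, 10.71, 10.71 and 10.62 in surgery, and 10.88, 10.90 and 10.90 in Maresin 1. With quantile normalization the 3 Maresin 1 arrays were the highest, with no overlap, while surgery and control overlapped. In the deposited signals control replicate 1 and surgery replicate 2 lay above them, so Maresin 1 and surgery overlapped before normalization. The difference was 0.24 (SE 0.05, adjusted p = 0.0886, limma) from control and 0.21 (SE 0.05, adjusted p = 0.859) from surgery. With one median per array the difference from surgery was 0.039 and that from control 0.23.

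Ndufb4, whose promoter with 3 NRF1 cores is printed above, had levels of 11.36, 11.30 and 11.35 in control, 11.38, 11.41 and 11.23 in surgery and 11.52, 11.53 and 11.49 in Maresin 1. Again all Maresin 1 arrays were above all others with quantile normalization. In the deposited signals control replicate 1 was highest and surgery replicate 2 also lay above every Maresin 1 array. Ndufb4 differed by 0.17 (SE 0.05) from either group. From surgery it differed by -0.0083 with one median per array, where the all-gene median was -0.089. The other probe set of Ndufb4 gave 0.14 and 0.17. Ndufb6, another membrane-arm subunit, differed by 0.21 from surgery and 0.20 from control with overlap, since surgery replicate 3 stood at 10.10 and the other surgery arrays at 10.47 and 10.36. Its difference from surgery was 0.050 with one median per array and 0.11 without surgery replicate 3.

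Lower levels were found in other supernumerary subunits. Ndufb2 had levels of 8.81, 8.90 and 8.81 in control, 8.81, 8.90 and 8.33 in surgery, and 8.52, 8.58 and 8.38 in Maresin 1. The Maresin 1 arrays lay below every control array, and surgery replicate 3 lay with them. The difference between Maresin 1 and control was -0.35 (SE 0.12, adjusted p = 0.282, limma).

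Ndufc1, a small membrane-arm subunit whose promoter held neither core, had 9.71, 9.68 and 9.65 in control, 9.49, 9.60 and 9.32 in surgery and 9.54, 9.44 and 9.33 in Maresin 1. Both operated groups lay below all controls. Surgery differed from control by -0.21 (SE 0.08, adjusted p = 0.739) and Maresin 1 from control by -0.24 (SE 0.08, adjusted p = 0.239), and its other probe set gave -0.14 and -0.16. With one median per array surgery differed from control by -0.039, and without surgery replicate 3 by -0.13. Ndufv3, an accessory subunit of the NADH-binding part, differed by -0.19 (SE 0.07) in both comparisons with control. In surgery its difference was -0.023 with one median per array and -0.12 with control replicates 2 and 3 left out. The other lower subunits at an unadjusted p under 0.05, named after their values were seen, were Ndufs6, Ndufb10, Ndufa5 and Ndufa12, at -0.24, -0.20, -0.20 and -0.15 between Maresin 1 and control.

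**Figure D3:**
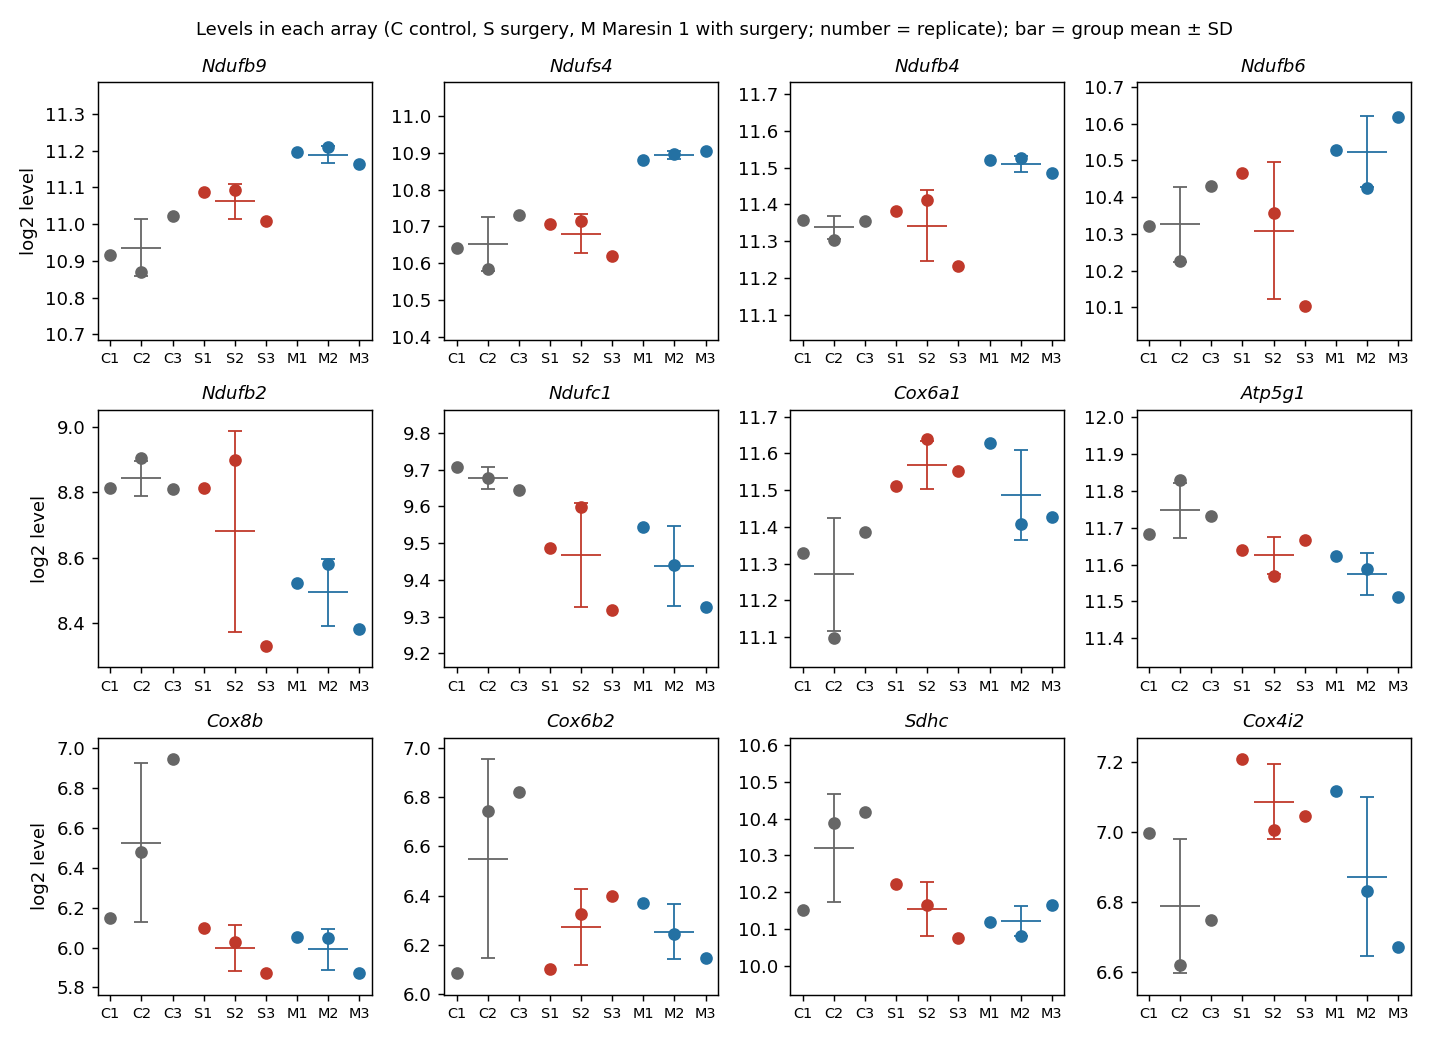
Log2 levels (y axis, each panel with its own range) of 12 genes in the 9 arrays (x axis), with points for arrays and bars for the group mean ± SD (n = 3). Ndufb9, Ndufs4 and Ndufb4 have all 3 Maresin 1 arrays on top, while Cox8b, Cox6b2 and Sdhc are highest in control replicates 2 and 3. These levels are quantile-normalized. In the deposited signals control replicate 1 is the highest array for Ndufb9, Ndufs4 and Ndufb4, and surgery replicate 2 also lies above every Maresin 1 array.

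Complex II, succinate dehydrogenase, is also a citric acid cycle enzyme, and 4 subunits were measured. With quantile normalization 2 of 4 were higher in surgery than in control and 1 of 4 in Maresin 1 than in surgery. These counts were, with one median per array, 4 of 4, at a median of 0.153, and 0 of 4, at a median of -0.181. Sdha, the flavoprotein that oxidizes succinate, had levels of 11.25, 11.20 and 11.31 in control, 11.39, 11.38 and 11.37 in surgery, and 11.29, 11.34 and 11.42 in Maresin 1. All 3 surgery arrays lay above all controls, and the Maresin 1 arrays overlapped both groups. Surgery differed from control by 0.13 (SE 0.05, adjusted p = 0.739, limma), and by 0.28 with one median per array. With quantile normalization Sdhb, the iron-sulphur subunit, differed by -0.027 and Sdhd, a membrane anchor, by 0.012.

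Sdhc, the other membrane anchor, had levels of 10.15, 10.39 and 10.42 in control, 10.22, 10.16 and 10.08 in surgery, and 10.12, 10.08 and 10.17 in Maresin 1. Control replicates 2 and 3, the arrays with high choroid plexus markers, were the high arrays, and control replicate 1 lay among the rest. Maresin 1 differed from control by -0.20 (SE 0.07, adjusted p = 0.286) and by -0.029 with control replicates 2 and 3 left out. Without control replicate 1, in contrast, Sdhc was called between Maresin 1 and control. The part of the plexus markers in this was not tested.

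Complex III, the cytochrome bc1 complex, had 7 subunits measured. The median subunit differed by -0.052 between surgery and control, with 1 of 7 higher, and by 0.117 with one median per array, with 7 of 7 higher. Between Maresin 1 and control it differed by -0.067, with 1 of 7 higher, by -0.058 with one median and by -0.094 without normalization, and 1 of 7 was higher in each case. Uqcrfs1, the Rieske iron-sulphur protein that passes electrons on to cytochrome c1, had 8.69, 8.59 and 8.70 in control, 8.58, 8.54 and 8.49 in surgery and 8.56, 8.55 and 8.41 in Maresin 1. The operated groups lay below all controls by a small margin. It differed by -0.15 (SE 0.07, adjusted p = 0.407, limma) between Maresin 1 and control. Uqcrc1, a core protein of the matrix side, differed by -0.083 there and by -0.058 between Maresin 1 and surgery, where one median per array gave -0.24.

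Uqcrh, the hinge protein near cytochrome c1, showed how 1 array weighed. It stood at 10.24 in surgery replicate 3 and between 10.46 and 10.69 elsewhere. Its difference between surgery and control was -0.080, and 0.054 without that array. Its second probe set, at a mean level of 6.04, gave 0.28. Uqcrc2, the partner of Uqcrc1, was read only by probe sets that also name Pdzd9, and so is no member. The brighter of them lay between 11.02 and 11.16.

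Complex IV, cytochrome c oxidase, has subunits with main isoforms and with tissue isoforms that replace them in muscle, lung, testis or other sites. The 10 main isoforms had a median difference of -0.0084 between surgery and control and 0.132 with one median per array, and 0.059 and 0.020 between Maresin 1 and control. Cox4i1, the main isoform of the largest nuclear subunit, had group means of 10.58 ± 0.06, 10.60 ± 0.15 and 10.66 ± 0.12 (SD, n = 3). Cox5a, which lies on the matrix side, had 9.57 ± 0.17, 9.53 ± 0.05 and 9.52 ± 0.08. Neither differed beyond its spread.

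Cox6a1, the main isoform of subunit VIa, had 11.33, 11.10 and 11.39 in control, 11.51, 11.64 and 11.55 in surgery, and 11.63, 11.41 and 11.43 in Maresin 1. All operated arrays lay above all controls. The difference between surgery and control was 0.30 (SE 0.08, adjusted p = 0.630, limma), a 1.23-fold higher level, and that between Maresin 1 and control 0.22. Its other probe set gave 0.12 and 0.033. With control replicates 2 and 3 left out, surgery differed by 0.24, and with one median per array by 0.45. Without control replicate 2, Maresin 1 differed from control by 0.13. Ndufa4, a subunit of complex IV long assigned to complex I, was at 10.13, 10.11 and 9.96 in surgery and 10.24, 10.15 and 10.34 in Maresin 1. The 2 groups did not overlap, but control, at 10.14, 10.07 and 10.20, overlapped both. Maresin 1 differed from surgery by 0.18 (SE 0.06), and by 0.012 with one median per array, where the all-gene median was -0.089.

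Tissue isoforms varied most between arrays. Cox8b, the muscle and brown fat isoform of subunit VIII, had the widest range of all members, 1.08. Its levels were 6.15, 6.48 and 6.95 in control, 6.10, 6.03 and 5.87 in surgery and 6.05, 6.05 and 5.87 in Maresin 1. Control replicates 2 and 3 stood out, and the rest lay close to background. The differences from control were -0.53 (SE 0.16, adjusted p = 0.640, limma) in surgery and -0.53 (SE 0.16, adjusted p = 0.212) in Maresin 1. Without control replicate 1 Cox8b was called in both, and with control replicates 2 and 3 left out the difference between Maresin 1 and control was -0.16.

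Cox6b2, the testis isoform of subunit VIb, shared this profile. It had 6.08, 6.75 and 6.82 in control, 6.10, 6.32 and 6.40 in surgery and 6.37, 6.25 and 6.15 in Maresin 1. Control replicate 1 was the lowest of all arrays. Surgery differed from control by -0.28 (SE 0.17), and by 0.19 with control replicates 2 and 3 left out. Without control replicate 1, Cox6b2 was called in Maresin 1 against control. Cox7a1, the heart and muscle isoform of subunit VIIa, was highest in control replicate 3, at 7.06, and between 6.32 and 6.64 elsewhere.

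Among all members 12 had control replicates 2 and 3 above all 7 other arrays, 12.4% against 6.03% of all genes. They were Atp5g1, Atp5o, Cox11, Cox20, Cox6b2, Cox8b, Ndufa12, Ndufb10, Ndufb11, Ndufs6, Ndufv3 and Sdhc, chosen by their values. With these 2 arrays left out, members at an unadjusted p under 0.05 numbered 8 in Maresin 1 against control, where 9.47% of all genes did, and 4 in surgery against control, where 7.11% did.

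Cox4i2, the lung isoform of subunit IV, also made by vessel wall cells, had 7.0, 6.62 and 6.75 in control, 7.21, 7.0 and 7.05 in surgery and 7.12, 6.83 and 6.67 in Maresin 1. Surgery arrays lay at or above the highest control, while Maresin 1 overlapped both groups. Surgery differed from control by 0.30 (SE 0.13, adjusted p = 0.781, limma) and Maresin 1 from surgery by -0.21 (SE 0.13). With control replicates 2 and 3 left out, surgery differed from control by 0.091, and with the choroid plexus score as a covariate by 0.10. The difference between Maresin 1 and surgery was -0.11 without Maresin 1 replicate 3 and -0.33 without Maresin 1 replicate 1. The mean deviation of 7 endothelial markers was -0.21, -0.23 and -0.26 in control, 0.14, 0.11 and 0.090 in surgery and 0.31, -0.091 and 0.14 in Maresin 1, with 7 of 7 higher in surgery than in control. Their part in Cox4i2 was not tested.

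Cox6a2, the heart and muscle isoform of subunit VIa, had 7.21, 7.08 and 7.42 in control, 7.30, 7.16 and 7.09 in surgery and 7.09, 6.88 and 6.83 in Maresin 1. The 3 Maresin 1 arrays lay at or below the lowest surgery array, and 1 of them overlapped control. It differed by -0.25 (SE 0.11, adjusted p = 0.859, limma) from surgery and -0.31 (SE 0.11, adjusted p = 0.287) from control. The 6 muscle markers measured had mean deviations of -0.23, 0.0082 and 0.043 in control, 0.13, -0.022 and 0.12 in surgery and 0.031, -0.088 and 0.0059 in Maresin 1. Their part in Cox6a2 was not tested. Over the 8 tissue isoforms the median difference between Maresin 1 and control was -0.23, with 2 of 8 higher, and -0.21 with one median per array and -0.24 without normalization, with 1 of 8 higher in both. Of the 8, Cox7b2, Cox8c and Ndufa4l2 lay below background, and Cox8b and Cox6b2 were highest in control replicates 2 and 3. No median of the 8 is given with those arrays left out.

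**Figure D4:**
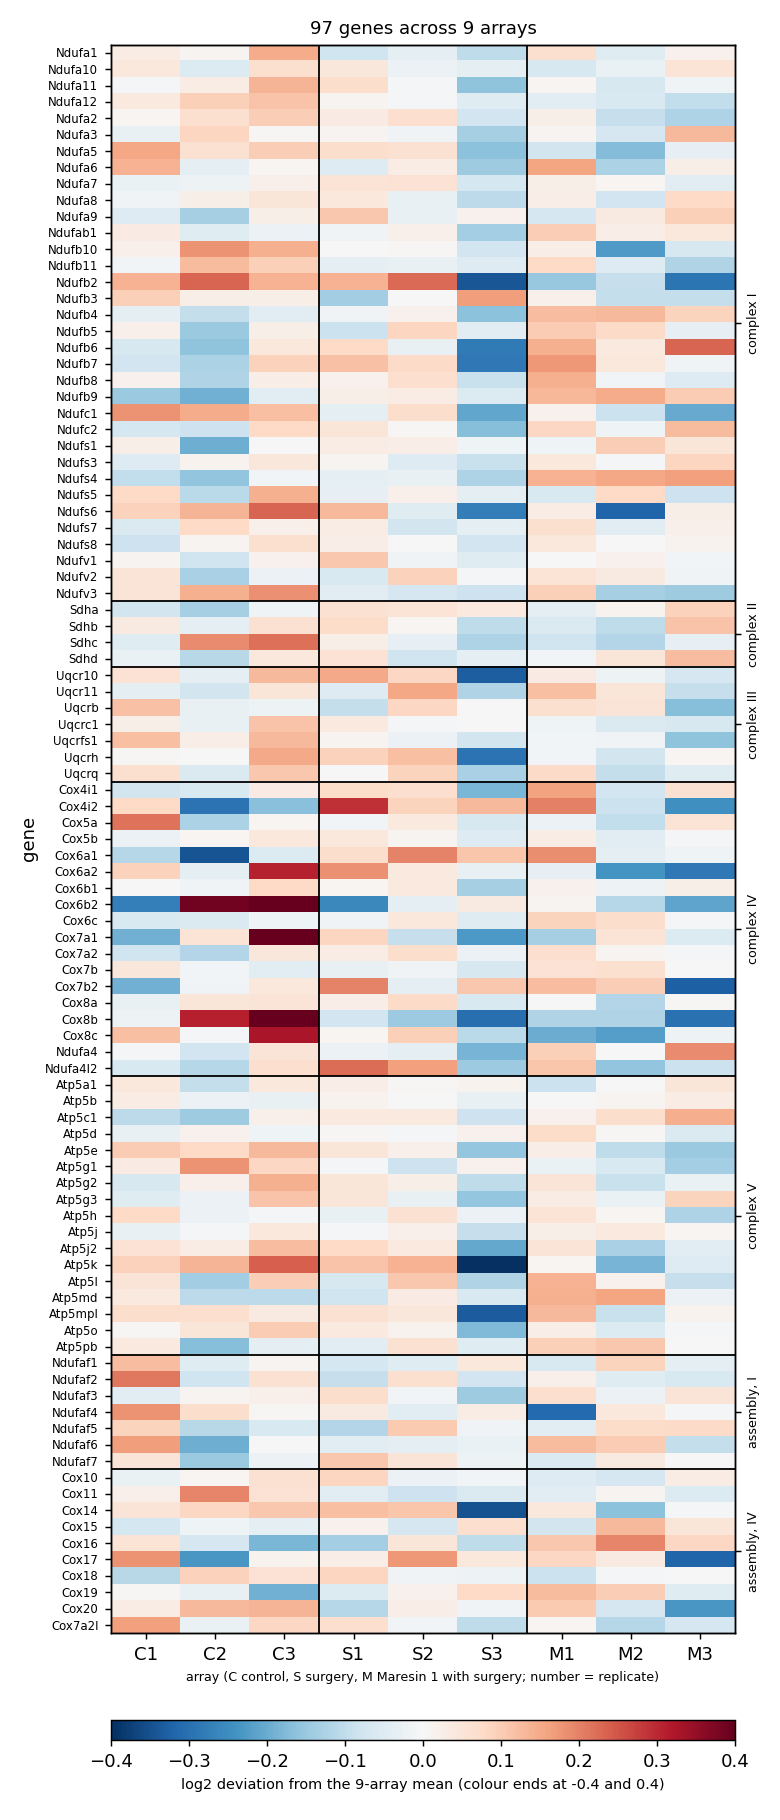
Log2 deviation of each of the 97 genes (rows, by complex, assembly factors last) from its 9-array mean in each array (columns), red above and blue below, with colours ending at -0.4 and 0.4. Blue cells gather in surgery replicate 3, where 37 genes have their lowest quantile-normalized value, and the deep red of Cox8b and Cox6b2 lies in control replicates 2 and 3.

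Complex V divides into the catalytic F1 head and the membrane part Fo with its stalk. Over all 17 subunits the median difference was -0.030 between surgery and control, with 6 of 17 higher, and 0.117 with one median per array, with 16 of 17 higher. It was 0.018 between Maresin 1 and surgery with 11 of 17 higher, and -0.139 with 0 of 17 higher with one median. The catalytic subunit beta, Atp5b, had the narrowest range of all members, 0.059, between 12.22 and 12.28. Atp5a1, subunit alpha, had group means of 11.41 ± 0.08, 11.43 ± 0.01 and 11.40 ± 0.07 (SD, n = 3).

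Atp5c1, the gamma subunit that turns inside the F1 head, had 10.69, 10.65 and 10.81 in control, 10.83, 10.83 and 10.71 in surgery and 10.81, 10.86 and 10.94 in Maresin 1. Control replicates 1 and 2 were lowest and the groups overlapped. Maresin 1 differed from control by 0.15 (SE 0.06, adjusted p = 0.301, limma). Atp5e, the small epsilon subunit of F1, differed in the other direction, by -0.13 between surgery and control and -0.18 between Maresin 1 and control, without overlap in either. With one median per array its difference between surgery and control was 0.026, and without surgery replicate 3 it was -0.069.

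Atp5g1 encodes subunit c of the proton-driven ring, as do Atp5g2 and Atp5g3. Its levels were 11.68, 11.83 and 11.73 in control, 11.64, 11.57 and 11.67 in surgery and 11.62, 11.59 and 11.51 in Maresin 1. Every control lay above every operated array. The differences from control were -0.12 (SE 0.05, adjusted p = 0.754, limma) in surgery and -0.17 (SE 0.05, adjusted p = 0.182) in Maresin 1, and its other probe set gave -0.11 and -0.18. With one median per array surgery differed by 0.015, and with control replicates 2 and 3 left out by -0.058. The sister genes Atp5g2 and Atp5g3, which encode the same mature protein, differed by -0.055 and 0.016 between Maresin 1 and control. Atp5md, a small membrane subunit, differed by 0.13 between Maresin 1 and surgery, by 0.11 and 0.15 on its other probe sets, and by -0.032 with one median per array.

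The 17 genes counted as assembly factors, of complexes I and IV, had a median difference of -0.025 between surgery and control and 0.091 with one median per array. Cox16, which helps to assemble the mitochondrially encoded core of complex IV, had 9.13, 9.01 and 8.89 in control, 8.94, 9.12 and 8.97 in surgery and 9.18, 9.27 and 9.15 in Maresin 1. With quantile normalization all Maresin 1 arrays were above the others, but in the deposited signals control replicate 1 and surgery replicate 2 lay above them. Cox16 differed by 0.19 (SE 0.07, adjusted p = 0.859, limma) from surgery and 0.19 (SE 0.07, adjusted p = 0.326) from control. Its difference from surgery was 0.060 with one median per array. Cox11, which delivers copper to the enzyme, was lower in surgery than in control by a difference of -0.15 (SE 0.06), and was named after its values were seen.

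Genes of neighbouring steps outside the symbol rule were measured beside them. Of 38 other nuclear genes of the chain and its assembly, 0 passed the adjusted threshold in limma. At an unadjusted p under 0.05, 2 were higher and 2 lower between Maresin 1 and control, against 5.87% and 5.61% of all genes. The median difference of the 38 was 0.027. Atpaf1, an assembly factor of the F1 head, differed there by 0.22 (SE 0.06, adjusted p = 0.195, limma). Higd2a, an assembly factor of complex IV, differed by -0.15 (SE 0.04, adjusted p = 0.215). In surgery against control the differences were 0.15 for Atpaf1 and -0.17 for Higd2a. Of 17 genes of pyruvate dehydrogenase and the citric acid cycle, 0 were called. Between Maresin 1 and control 2 were higher at an unadjusted p under 0.05, against 5.87% of all genes. These were Mpc1 of the pyruvate carrier, by 0.20 (SE 0.05), and Dld, a dehydrogenase subunit shared by several complexes, by 0.30 (SE 0.08). Surgery differed from control by 0.029 in Mpc1 and 0.18 in Dld.

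Regulators of mitochondrial genes went both ways between Maresin 1 and control. Of 15 measured 0 were called, and 3 were higher and 4 lower at an unadjusted p under 0.05, against 5.87% and 5.61% of all genes. Tfam, which packages and transcribes mitochondrial DNA, differed by 0.30 (SE 0.09, adjusted p = 0.210, limma). The coactivator Ppargc1a differed by -0.16 (SE 0.05, adjusted p = 0.210) and the nuclear receptor Esrrg by -0.33 (SE 0.08, adjusted p = 0.118). In surgery against control Tfam differed by 0.21, Ppargc1a by -0.041 and Esrrg by -0.11. The 79 cytosolic ribosomal protein genes had a median difference of 0.081 between Maresin 1 and control, with 68 of 79 higher, against 49.0% of all genes.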

How the data were processed

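RNA of the hippocampus was extracted with Trizol and 6 µg of it was labelled with biotin for each array, per the labels' protocols. Per the submitters' processing notes, the authors used Affymetrix Expression Console, whose settings are not given in the sources used. The deposited unit is intensity, a linear signal for each of 35556 probe sets, with medians that differ between arrays. Groups were taken from the titles.

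Only the 21218 probe sets with 1 gene were used, and 1881 that carry several genes were left out, as were unnamed ones. Signals were brought to one distribution by quantile normalization and transformed as log2 of the signal plus 16. The probe set with the highest mean stood for each gene, which for the 97 members meant 97 of 130 probe sets. Of 24 members with several probe sets, all probe sets had one sign in 18 for surgery against control, 18 for Maresin 1 against surgery and 21 for Maresin 1 against control. Group differences come from limma 3.58.1 under R 4.3.3, in 1 linear model of the 3 groups with no covariate and a trended variance prior. Adjusted p-values are Benjamini-Hochberg over all 18820 genes, and a gene was called under 0.05. The pipeline was tested on simulated data. A complex is described by counts and medians, with no test. The number of arrays, 3 a group, limits the precision.

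The members, the lists, the named genes and the tests were chosen with earlier results of these data known. Named genes are those with the smallest unadjusted p in each complex and comparison, the 4 largest differences in each comparison and a fixed set of catalytic subunits and tissue isoforms. Alternatives were other constants, scalings, probe set rules and filters, a replicate block, a choroid plexus covariate and leaving out arrays.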

Additional observations from a re-analysis of the deposited data

How the results depend on the processing

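Of 700 values of single genes, from 35 named differences under 20 alternatives, 679 kept direction and side of the threshold, 16 changed direction and 5 passed the threshold. The counts of members called were 0 in every comparison and alternative run, except that 1 in surgery against control and 4 in Maresin 1 against control were called without control replicate 1, so that leaving out 1 array each gave 0 to 1 and 0 to 4. These were Cox8b in the former, and Cox6b2, Cox8b, Ndufb9 and Sdhc in the latter. The numbers of members at an unadjusted p under 0.05, which were 10, 8 and 23, became 4, 1 and 3 with arrays scaled to one median, where 5.75%, 3.67% and 3.48% of all genes did, and 1, 0 and 1 with no normalization, where 1.63%, 0.855% and 1.15% did. Without a trend in the variance prior they became 6 in surgery against control and 5 in Maresin 1 against surgery, where 6.11% and 5.45% of all genes did. With the choroid plexus covariate they were 4 in surgery against control and 8 in Maresin 1 against control, where 6.31% and 8.74% of all genes did. Where control replicates 2 and 3 were left out, the lone control was assumed to vary like the other groups. Leaving out 1 array each gave 4 to 13, 4 to 8 and 16 to 24 members. The lowest counts came without control replicate 2 in the first, where 3.71% of all genes did, and without Maresin 1 replicate 2 in the second, where 3.96% did. In the last they came without control replicate 3 or Maresin 1 replicate 2, where 11.2% and 8.01% did. Without control replicate 1, which gave 13, 8 and 24 members, 9.47%, 6.49% and 13.7% of all genes did.

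Medians of complexes I to V with arrays scaled to one median were 0.121, 0.153, 0.117, 0.115 and 0.117 in surgery against control, and -0.130, -0.181, -0.165, -0.127 and -0.139 in Maresin 1 against surgery, with all members at 0.118 and -0.132. All genes stood at 0.101 and -0.089 there. Complex IV in surgery against control stood at 0.043 with the covariate and 0.047 with the 2 controls left out. With no normalization complexes I and V stood at -0.027 and -0.034 in Maresin 1 against surgery and at -0.040 and -0.088 in Maresin 1 against control, where all members stood at -0.060. Leaving out 1 array each gave complex V medians of -0.053 to 0.014 in Maresin 1 against control, the lowest without control replicate 2, and of -0.027 to 0.059 in Maresin 1 against surgery, the lowest without surgery replicate 3. The cause was not tested for any of these.

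Genes whose direction turned with one median per array were Atp5e (0.026), Atp5g1 (0.015), Uqcrfs1 (0.024) and Uqcrh (0.085) in surgery against control, and Atp5c1 (-0.11), Atp5md (-0.032), Ndufb4 (-0.0083) and Sdhd (-0.053) in Maresin 1 against surgery. The medians of all genes with that scaling were 0.101 and -0.089 in these comparisons. Atp5c1 also turned with no normalization (-0.0035), and Uqcrh with the mean of its probe sets (0.10) and over left-out arrays it ran from -0.15, without surgery replicate 2, to 0.054, without surgery replicate 3. Cox6b2 turned with the covariate (0.18 in surgery and 0.12 in Maresin 1 against control) and with the 2 controls left out (0.19 and 0.17). Uqcrfs1 between Maresin 1 and surgery turned without Maresin 1 replicate 3 (0.015). Replicate numbers are shared between groups. The 9 correlations of the deviations of same-numbered arrays ran from -0.24 to 0.055, so no shared signal was seen. Whether same-numbered arrays were handled together cannot be told from these values. With the replicate block 0 members were called in each comparison. An unadjusted p under 0.05 was found for 8, 8 and 21 members, and for 4.62%, 3.95% and 9.17% of all genes. Signal near background limits Cox8b, Cox6b2 and the 3 members below it.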
